A study of Homo sapiens with 8 samples.

Results

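The region described here is a 2 Mb window of 8q24 on chromosome 8 that holds the *ZFAT* locus, and within it a run of enhancers with very high input signal in the medulloblastoma line HD-MB03. Every stitched enhancer that overlapped the window was taken, which gave 118 of the 88550 enhancers in 4 lines, lying between 132978530 and 134987026 (GRCh38). The window and the block were chosen by the high input signal of HD-MB03. MB002 contributed 30 of its 26072 enhancers, D425 20 of 26317, HD-MB03 44 of 15286 and UW228 24 of 20875. H3K27Ac ChIP-seq, which maps the acetylated histone mark of active enhancers, was set against input chromatin sequenced without antibody. MB002, D425 and HD-MB03 are Group 3 medulloblastoma (G3-MB) lines, and UW228 is labelled as of the SHH subtype and served as the line outside G3-MB. MB002 and HD-MB03 were grown in Tumor Stem Media and D425 and UW228 in DMEM with serum, so medium and line cannot be told apart. Each line gave 1 H3K27Ac library and 1 input library with no replicate, none of the lines was treated, and the depth of the libraries is unknown. The values therefore describe 1 culture per line, and no difference between lines was tested.

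*ZFAT* encodes a zinc finger protein with AT-hook motifs that binds DNA and is known from the survival and development of blood and endothelial cells. *ZFAT-AS1* is an antisense RNA gene inside *ZFAT*, and *LINC03024* is a long intergenic non-coding RNA gene on its 3′ side. H3K27Ac marks active enhancers, and ROSE joins neighbouring peaks into stitched enhancers, orders them by signal and calls those past the bend of the curve super-enhancers (SEs), the rest being typical enhancers (TEs). Reads from input follow the amount of DNA at a place and how readily it is fragmented and mapped, so the input is the measure against which the mark is read.

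In HD-MB03, 30 of the 44 enhancers of the window lay in a block from 133833288 to 134845331, a span of 1012043 bp. Input at these enhancers was far above that of the median enhancer of the line. The relative input density, in which the input per bp of an enhancer is set against the median enhancer of the same line, had a median of 48.2 over these 30 enhancers and ranged from 40.98 to 114. Over all of HD-MB03, 57 of 15286 enhancers, or 0.373%, had a density of at least 5, the level that defined the block. The input thus chose the block, and its input values and the ratios to input are given as descriptions. Over the other 14 enhancers of the window the density ranged from 0.530 to 2.13 with a median of 1.07, so no enhancer lay between the ranges. The lowest value inside the block belonged to its first enhancer, from 133833288 to 133834968, and the highest outside it to a 485 bp enhancer at 133375803 to 133376288.

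Both edges of the block were sharp at the spacing of the enhancers. On the left, the density went from 0.538 at 133724913 to 133725242 to 40.98 at the first enhancer of the block, across a gap of 108 kb without an enhancer. On the right, it went from 54.0 at 134844401 to 134845331 to 1.03 at 134915808 to 134949968, across a gap of 70.5 kb. The step itself could lie anywhere within these gaps, because the values exist only where an enhancer was called.

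**Figure D1:**
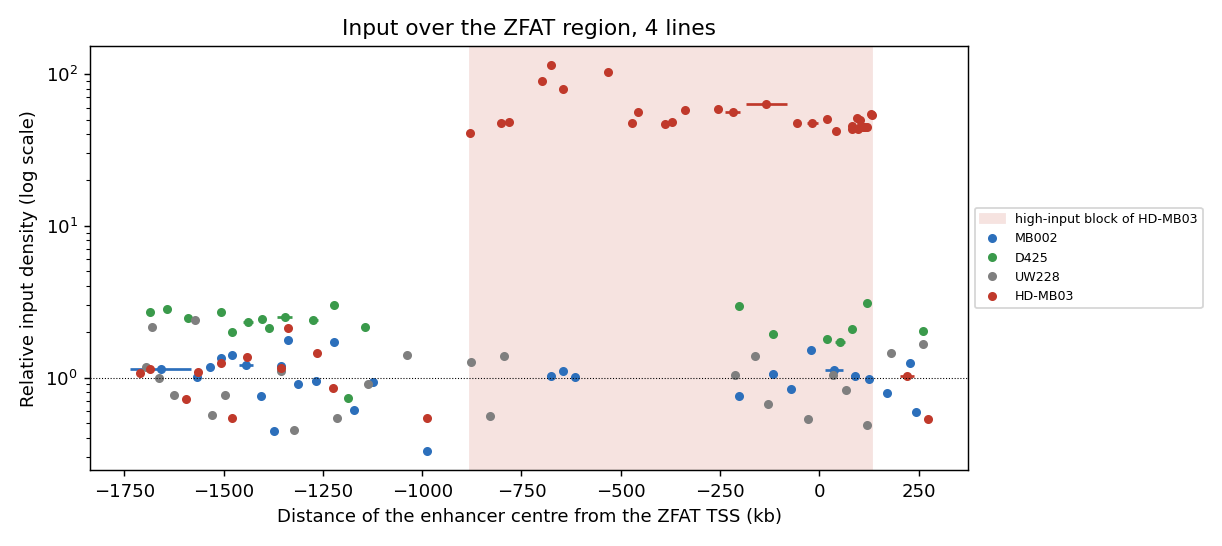
Relative input density (log scale, 1 being the median of the line) of each enhancer against the distance of its centre from the ZFAT TSS in kb, with horizontal bars for enhancer length and 1 library per line. The HD-MB03 points inside the shaded block lie between 40.98 and 114 and all other points lie between 0.328 and 3.12, with 1 MB002 enhancer without input reads left off the axis.

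The block was not flat. A stretch of 4 neighbouring enhancers from 134010423 to 134181007 had densities of 89.9, 114, 79.1 and 102, while the other 26 ranged from 40.98 to 63.6 with a median of 47.7. The nearest enhancers on either side of the stretch were at 48.4 and 47.3, at distances of 76.2 kb and 59.5 kb. No annotated protein-coding gene lies in this stretch. Among those 26, the largest density, 63.6, belonged to the enhancer that spans the middle of *ZFAT*.

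None of the other lines had a high input here. The median density over the window was 1.01 in MB002, with a range from 0 to 1.77, and 1.01 in UW228, with a range from 0.449 to 2.38. In D425 it was 2.36 with a range from 0.733 to 3.12, above the median enhancer of its own line over most of the window but below the defining level of 5 throughout. The share of all enhancers at or above that level was 0.184% in MB002, 0.0684% in D425 and 0.00479% in UW228, and none of these lay in the window.

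The block was separate from the high-input block at *MYC* on the same chromosome arm of HD-MB03. That block ran from 127297616 to 127754704 and held 5 enhancers with a median density of 118. The 39 HD-MB03 enhancers between the blocks had a median density of 0.971 and none exceeded 2.13. Beyond the *ZFAT* block towards the end of the chromosome, the density of 102 enhancers ranged from 0 to 2.01 with a median of 0.890. The number of copies of this DNA was not measured and was not tested.

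The H3K27Ac signal of the block was high in absolute terms and low against its own input. Its 30 enhancers had a median of 9.46 rpm/bp (reads per bp scaled to the mapped reads of the library), against 0.622 over all HD-MB03 enhancers and 0.793 over the other 14 of the window. The ratio of H3K27Ac to input had a median of 1.56 in the block, 7.66 in the rest of the window and 5.65 over the line. A ratio under 2 was found at 23 of the 30 block enhancers, at none of the other 14, and at 3.48% of the line. The *MYC* block of HD-MB03 was alike in this, with a median ratio of 1.43 and all 5 enhancers under 2. In MB002, D425 and UW228 the median ratios over the window were 6.45, 4.57 and 5.26, and 0 of 29, 3 of 20 and 1 of 24 enhancers with input reads were under 2, against 5.99%, 5.57% and 2.45% of these lines.

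**Figure D2:**
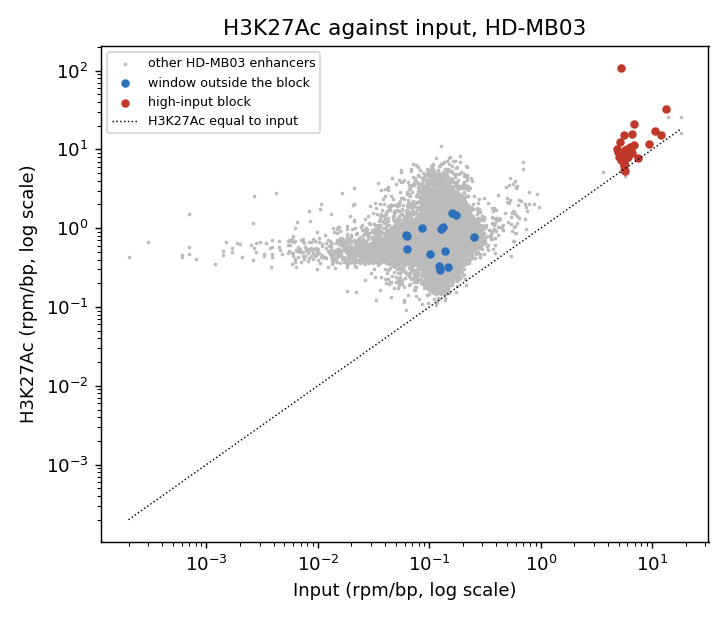
H3K27Ac against input, both in rpm/bp on log scales, for each HD-MB03 enhancer with input reads, the dotted line marking equal values. The 30 block enhancers (red) form a group at inputs from 4.82 rpm/bp upwards close to the dotted line, and a single one stands far above it at 106 rpm/bp of H3K27Ac.

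The lowest ratios were below 1. The enhancer from 133926570 to 133934196 carried an H3K27Ac signal of 40398 and an input signal of 43445, each in rpm/bp multiplied by length, for a ratio of 0.930. The enhancer from 134319088 to 134329305 carried 55524 against 56466, a ratio of 0.983. Both were stitched from a few short peaks, which covered 21.5% and 15.6% of their length, and after subtraction of the input both were listed at 0, at ranks 15277 and 15280. Such enhancers numbered 10 in the whole line, or 0.0654%.

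Ratios were lower where several peaks had been joined. The 20 block enhancers made of 1 peak had a median ratio of 1.61, and the 10 stitched from more peaks had a median of 1.18, with 28.7% of their summed length inside a peak. The input of the gaps between peaks is counted in the stitched value in the same way as that of the peaks. The density of the 2 kinds was alike, with medians of 49.0 and 48.1.

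**Figure D3:**
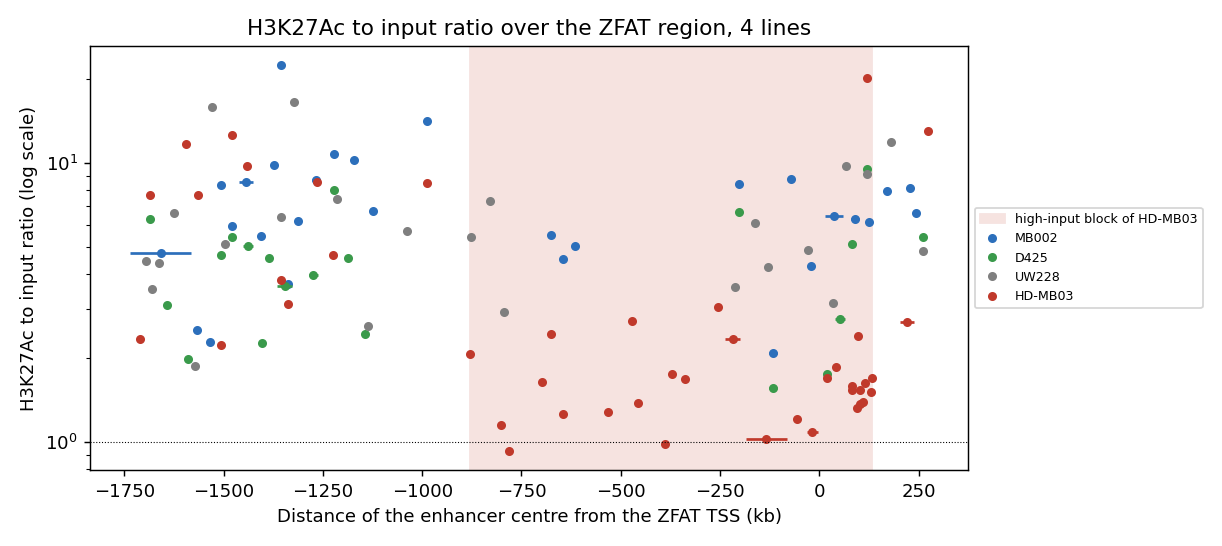
Ratio of H3K27Ac to input (log scale) of each enhancer against the distance of its centre from the ZFAT TSS in kb, for 4 lines with 1 library of each kind per line. The HD-MB03 points in the shaded block lie between 0.930 and 3.04 except for 1 at 20.1, and those outside it between 2.23 and 13.0, with 1 MB002 enhancer without input reads not drawn.

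A single enhancer broke from this pattern. The enhancer from 134829617 to 134833761, 116.6 kb upstream of the *ZFAT* TSS, had an H3K27Ac signal of 439575 over 4144 bp against an input signal of 21845. Its 106 rpm/bp of H3K27Ac was the highest of all 15286 HD-MB03 enhancers and 11.5 times the median of 9.23 rpm/bp over the other 29 enhancers of the block, of which the next carried 32.8 rpm/bp. Its input, 5.27 rpm/bp with a relative density of 44.8, was within the range of its neighbours. Its ratio was 20.1, and the next in the block was 3.04. That ratio was itself not extreme for the line, since 1047 enhancers had a higher one, which put it at percentile 93.1 of those with input reads. The enhancer held 41.2% of the H3K27Ac minus input of the block and was ranked 2 in HD-MB03.

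This enhancer was a single unstitched peak and overlapped the annotated starts of long non-coding RNA genes without a symbol on opposite strands, ENSG00000289405 with its TSS at 134832014 and ENSG00000254028 with its TSS at 134832747. The first of these is transcribed towards *ZFAT* and its body also spans the block enhancers between *ZFAT* and this one. The TSS of *NCRNA00250*, a non-coding RNA gene, was 4308 bp away. GENCODE 44, used here, ends *ZFAT* at 134713049, while the RefSeq gene table carries *ZFAT* on to 134832339, which lies inside the enhancer. Promoter-flanking peaks were excluded by the study, and which annotation served for this is not given in the sources used here.

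The same place was called in all 4 lines. In MB002 the overlapping enhancer, from 134830375 to 134845511, had 0.813 rpm/bp of H3K27Ac, a ratio of 6.12 and rank 2081. In D425 it ran from 134830857 to 134833133 and had 3.92 rpm/bp, a ratio of 9.47 and rank 2408. In UW228 it ran from 134830160 to 134833626 and had 0.687 rpm/bp, a ratio of 9.12 and rank 9328. HD-MB03 was therefore highest in both H3K27Ac per bp and ratio, and the place was a TE in the other lines. With H3K27Ac minus input per bp divided by the enhancer's own relative input density, the values were 2.25 in HD-MB03, 1.25 in UW228, 1.12 in D425 and 0.692 in MB002. HD-MB03 was highest, by a far smaller margin than in H3K27Ac per bp. This measure follows from the ratio and the median input of the line, so it is no separate check on the ratio. The MB002 enhancer is longer and was stitched across the *NCRNA00250* gene, so its values per bp cover more sequence than those of the other lines.

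*ZFAT* itself, at 134477788 to 134713049 on the minus strand, was overlapped by 4 enhancers of the block. They covered 176047 bp, had densities from 47.6 to 63.6 and held 9.06% of the input of all HD-MB03 enhancers. The enhancer from 134475131 to 134513537 covers the 3′ end of *ZFAT*, combined 16 peaks that filled 61.9% of its length, and carried an H3K27Ac signal of 594306 against an input of 253510. Its ratio was 2.34 and its rank was 3, which made *ZFAT* SE-associated in HD-MB03.

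The next enhancer, from 134527513 to 134631769, spans exons and introns in the middle of *ZFAT* and the whole of *ZFAT-AS1*, the antisense RNA gene. It had the largest input signal of any HD-MB03 enhancer, 780961, or 5.79% of the input of the line, and an H3K27Ac signal of 798351. The ratio was 1.02, so the H3K27Ac minus input was 17390 over 104256 bp, and the rank was 557. Its 17 peaks filled 15.4% of the length. Nearer the 5′ end, the enhancers from 134654477 to 134659409 and from 134681104 to 134709557 had ratios of 1.21 and 1.09 and ranks of 2113 and 777.

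The *ZFAT* TSS at 134713049 lay between enhancers, 3492 bp from the one on its gene side and 14241 bp from the one upstream. The upstream enhancer, from 134727290 to 134735703, was an SE with an H3K27Ac minus input of 35022 and a ratio of 1.70. The one after it, from 134753206 to 134757553, was a TE of rank 496 with a ratio of 1.85. *ZFAT* had 6 assigned enhancers in HD-MB03, 5 in MB002, 4 in D425 and 5 in UW228, where an enhancer was assigned to a gene whose body it overlapped, whose TSS was within 50 kb, or whose TSS was closest to its centre.

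By its highest-ranked enhancer, *ZFAT* stood at rank 3 in HD-MB03, 270 in MB002, 1719 in D425 and 14518 in UW228. It was SE-associated in HD-MB03 and MB002, against 3.16% and 3.34% of all 27445 genes in these lines, and not in D425 or UW228, where the share was 4.31% and 5.64%. After division by own relative input density, the best *ZFAT* enhancer stood at 2107 in HD-MB03, 250 in MB002, 3047 in D425 and 14389 in UW228. The locus was chosen by the high input of HD-MB03, so the division lowers HD-MB03 by construction and this order is a description only. With overlap of the GENCODE gene body alone, the best rank in MB002 was 4404 and the SE association was lost there. The longer RefSeq extent of *ZFAT* contains that MB002 SE, and with it the best rank in HD-MB03 was 2. The MB002 SE, from 134726648 to 134773374, lies upstream of the GENCODE gene, combined 15 peaks and had a ratio of 6.45 at a relative input density of 1.12. The D425 enhancer, from 134752097 to 134778562, overlaps that MB002 SE and had a ratio of 2.75 at a density of 1.72. The SE of rank 3 in HD-MB03 lies at the other end of the gene, where MB002, D425 and UW228 had short enhancers of ranks 10547, 4161 and 19854. Of the HD-MB03 enhancers, the SE next to the *ZFAT* TSS and the TE of rank 496 fell within the MB002 SE.

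*ZFAT-AS1*, at 134598071 to 134600689 on the plus strand, had 9 assigned enhancers in HD-MB03, of which those of ranks 3 and 557 were also assigned to *ZFAT*. The enhancers that overlapped it ranked 557 in HD-MB03, 6295 in MB002 and 5956 in D425, with ratios of 1.02, 2.09 and 1.56. In each of these lines this was a long stitched enhancer, of 104256, 19818 and 20211 bp. UW228 had no enhancer over the gene. Its SE association in HD-MB03, at rank 3, came only from being the closest TSS at 84534 bp, and its best ranks elsewhere were 4404 in MB002, 4161 in D425 and 14518 in UW228.

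*LINC03024*, at 133663758 to 133684127, did not lie in the block, which began 149.161 kb beyond it. Its SE association in HD-MB03, at rank 67, rested on an enhancer 326296 bp away that had no closer gene in the set used. That enhancer, from 134010423 to 134016860, was the first of the inner stretch and had a ratio of 1.64 at a density of 89.9. The second of the stretch, from 134035570 to 134036772, was an SE of rank 298 with 32.8 rpm/bp of H3K27Ac, an input of 13.4 rpm/bp and a ratio of 2.44, and it also had *LINC03024* as the closest gene. An enhancer over the gene itself was called in UW228 alone, from 133674495 to 133675830, with a ratio of 5.72 and rank 11406. No enhancer of D425 was assigned to *LINC03024*, and its best in MB002 ranked 11870.

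The distal end of the block held *MIR30B* and *MIR30D*, microRNA genes of the miR-30 family, and *NCRNA00250*. Along with *ZFAT* and *ZFAT-AS1* these were all 5 of the genes with a RefSeq symbol in the block, and of the 19 GENCODE genes in it *ZFAT* was the only protein-coding one. *MIR30B* and *MIR30D* had best ranks of 2 in HD-MB03, 270 in MB002, 1719 in D425 and 8891 in UW228, each from an enhancer within 50 kb and not from one over the genes. The enhancer over both genes was present in MB002 only, from 134793221 to 134813756, with a ratio of 6.30 and rank 1250. *NCRNA00250* ranked 2, 1250, 2408 and 3429 in the same order of lines.

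In this end of the block 11 neighbouring enhancers, from 134793440 to 134845331, had been left unstitched although no gap between them exceeded 11569 bp and the header names a stitching distance of 12 kb. Unstitched entries of this kind numbered 460 in HD-MB03, or 3.01%. They had 5.38 rpm/bp of input over 13074 bp, and the enhancer of rank 2 held 90.7% of their H3K27Ac minus input. Of the other 10, the one from 134808962 to 134812703 was an SE of rank 225 with a ratio of 2.40, and the remaining 9 had ratios from 1.32 to 1.70.

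Enhancers of the block were compared by position with those of the other lines, where a shared base counted as presence. Of the 30, 14 overlapped an enhancer of MB002, 7 one of D425 and 5 one of UW228, or 46.7%, 23.3% and 16.7%. Over all HD-MB03 enhancers these shares were 61.2%, 51.2% and 26.2%, and in the rest of the window 2 of 14 overlapped UW228, so the UW228 share is not read as particular to the block. Of the 30, 11 were unstitched entries, against 3.01% of the line, and several of them lay on the same enhancer of another line. The 14 overlapped 8 MB002 enhancers and the 7 overlapped 6 of D425, so the block shares count some places more than once. With 0.5 of the length of both enhancers required, 2, 2 and 1 of the 30 counted as present in MB002, D425 and UW228, against 18.6%, 14.9% and 4.38% of all HD-MB03 enhancers by the same rule. With 0.5 of the HD-MB03 enhancer alone, 11 were present in MB002, 5 in D425 and 1 in UW228. The share over all HD-MB03 enhancers by this rule was taken for UW228 alone, at 16.3%. No other line had an enhancer at 15 of the 30 places, against 25.4% of all HD-MB03 enhancers, and all 3 had one at 3 of them, against 15.0%. Those 3 were the enhancers of ranks 2, 3 and 557, of which the latter are long. Seen from the other lines, 8 of the 10 MB002 enhancers in the span, all 6 of D425 and 6 of the 10 of UW228 overlapped an HD-MB03 enhancer, against 35.2%, 29.9% and 18.7% of all enhancers of these lines. The HD-MB03 enhancers covered 238728 bp of the 1012043 bp of the block.

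The longest run of enhancers called in HD-MB03 alone, picked after its values were seen, held 7 enhancers from 134180716 to 134458120 on the 3′ side of *ZFAT*. Within and upstream of *ZFAT*, from 134475131 to the end of the block, 12 of 17 had a counterpart in at least 1 other line, near the 74.6% of all HD-MB03 enhancers. In the rest of the window 13 of 14 HD-MB03 enhancers had one, with 13 overlapping MB002, 10 D425 and 2 UW228.

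**Figure D4:**
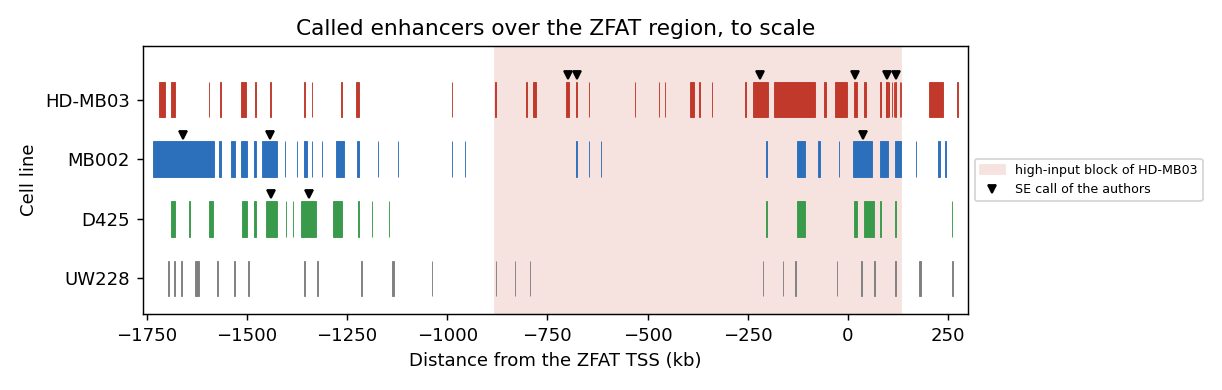
Called enhancers of each line over the window, drawn to scale as boxes against the distance from the ZFAT TSS in kb, with triangles for the SE calls of the authors. HD-MB03 has 6 SEs, all inside the shaded block, and MB002 has 3 and D425 2, of which 1 of MB002 lies inside the span of the block.

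At the places shared with another line, the HD-MB03 ratio was nearly always the lower. It was lower in 13 of 14 overlapping pairs with MB002, 6 of 7 with D425 and 5 of 6 with UW228, against 44.7%, 39.2% and 52.0% of all overlapping pairs of these lines. In each case the pair that went the other way was the enhancer of rank 2. The input of HD-MB03 entered both the choice of the block and this ratio. At 134035570 to 134036772, for example, HD-MB03 had 32.8 rpm/bp of H3K27Ac and a ratio of 2.44, and MB002 had 0.765 rpm/bp and a ratio of 5.51. The smallest difference was at 134727290 to 134735703, where the ratio was 1.70 in HD-MB03 and 1.75 in D425.

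Of the 30 block enhancers, 6 were SEs by the call of the authors, against 1.98% of all HD-MB03 enhancers, and none of the other 14 of the window was. They were the enhancers of ranks 2, 3, 67, 225 and 298 among 302 SEs and the one next to the *ZFAT* TSS, and 10 of the 30 stood in the first 1000. When the H3K27Ac minus input of each enhancer was divided by its own relative input density and the cutoff drawn again, 378 enhancers of the line passed it and none of the 6 did. Because the block was chosen by that density, the division lowers its enhancers by construction, and the new ranks are a description only. The enhancers of ranks 2 and 3 moved to 1337 and 2107, those of ranks 67, 225 and 298 to 10194, 9377 and 12799, and the one next to the *ZFAT* TSS to 8981. The median rank in the block went from 2642 of 15286 to 14667 of 15181, while that of the other 14 enhancers went from 4528 to 5230. Division by the median input within 500 kb also left 0 of the 6 as SEs. Other orderings raised the count in the window. It was 12 without input subtraction, where the line had 202 SEs, and 16 among the first 302 by H3K27Ac minus input per bp.

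**Figure D5:**
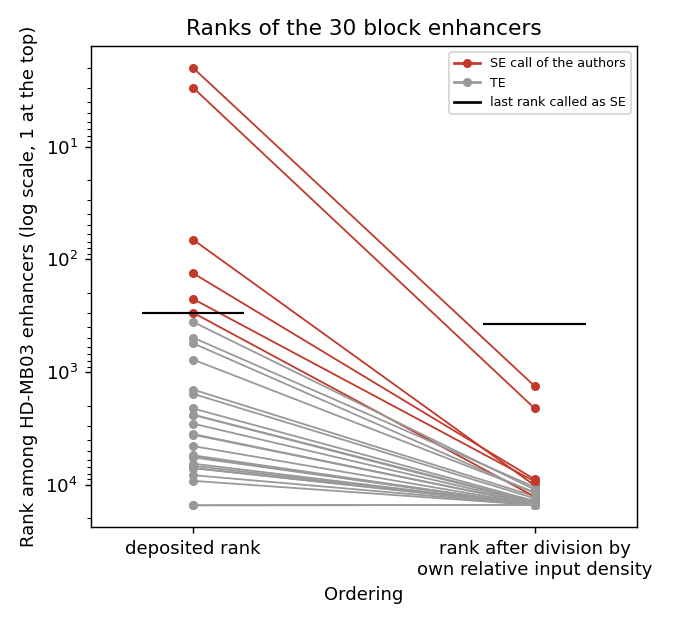
Ranks of the 30 block enhancers in HD-MB03 on an inverted log scale, as deposited and after H3K27Ac minus input was divided by the density of input at that enhancer, with black bars at the last rank called as SE (302 and 378). All 6 SEs (red) fall below the second bar, the highest at 1337.

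The same division left the SEs of MB002 in place. There the 3 SEs of the window, against 1.39% of its enhancers, were one over *TG* and *SLA* at rank 40, one in *NDRG1* at rank 200 and the one upstream of *ZFAT* at rank 270, and with densities of 1.14, 1.21 and 1.12 they stood at ranks 23, 219 and 250 after it, all within the new cutoff. The 2 SEs of D425, against 1.64%, lay in *NDRG1* at rank 269 and between *NDRG1* and *ST3GAL1* at rank 284, at densities of 2.33 and 2.50, and moved to 1045 and 1196, outside the cutoff. UW228 had none in the window, where 3.61% of its enhancers were SEs. The new cutoff passed 951 enhancers of MB002 against 363 SEs as deposited, and 982 of D425 against 431. With it, MB002 had 5 SEs in the window.

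By deposited rank, the enhancers at the genes of the window outside the block stood lower in HD-MB03 than in MB002 and D425. *NDRG1*, a gene induced by stress and differentiation, stood at rank 1976 in HD-MB03, 200 in MB002, 269 in D425 and 9716 in UW228. *ST3GAL1*, a sialyltransferase gene, stood at 4316, 848, 617 and 11797, and *CCN4*, which encodes a matricellular protein of the WNT pathway, at 4451, 801, 879 and 7812. *TG*, which encodes thyroglobulin, stood at 1397, 40, 556 and 3709, and *SLA*, a signalling adaptor gene inside it, at 6358, 40, 5165 and 3709. In the deposited ranks HD-MB03 was thus behind MB002 and D425 at each of these 5 genes. After division by own relative input density, the same *TG* and *SLA* enhancers stood at 1630 and 5630 in HD-MB03, ahead of 2135 and 9869 in D425. Those of *NDRG1*, *ST3GAL1* and *CCN4* stayed behind, at 2705, 5811 and 2971 against 1045, 1978 and 2953 in D425. The lead of HD-MB03 over MB002 at *ZFAT* turned after this division, which lowers HD-MB03 there by construction. All of these ranks are within a line of its own number of enhancers.

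Summed over the window, H3K27Ac minus input was 1051883 in HD-MB03, 299798 in MB002, 173764 in D425 and 39432 in UW228, over called lengths of 332001, 375942, 193211 and 49686 bp. The mean per called bp was 3.17, 0.797, 0.899 and 0.794 rpm/bp. Outside the span of the block it was 0.412 in HD-MB03, 0.853 in MB002, 1.08 in D425 and 0.845 in UW228, so HD-MB03 went from first to last per called bp. By sums outside the block, HD-MB03 with 38392 stayed above UW228 with 31609. Division of the window sums by the median input density of the window turned the log2 ratio of HD-MB03 over MB002, D425 and UW228 from 1.81, 2.60 and 4.74 to -3.66, -1.65 and -0.74. The input of HD-MB03 chose the window, so this turn follows from that choice, and the sums cover regions called separately in each line. The block thus held nearly all of the HD-MB03 signal of the window. It took 2.08% of the H3K27Ac minus input of the whole line, 11.99% of its input and 0.285% of its called length.

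By the deposited signal, in which the *ZFAT* value of HD-MB03 comes from an enhancer with an input density of 56.1, the genes whose best enhancer was most like that of *ZFAT* over the 4 lines were *NEUROD1*, *CDR2L*, *ULK4*, *CACNA1S* and *NENF*, at Euclidean distances of 3.00, 3.00, 3.12, 3.17 and 3.18 on log2 of H3K27Ac minus input plus 1. In *NEUROD1*, which encodes a neuronal transcription factor, H3K27Ac minus input was 51008 in HD-MB03, 39673 in MB002, 24174 in D425 and 573 in UW228, and in *ZFAT* it was 340796, 38563, 10570 and 663.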

How the data were processed

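H3K27Ac ChIP-seq and input libraries of the 4 lines were used as deposited, 1 of each kind per line. The deposited signal of each stitched enhancer is its reads per bp, scaled by library size and summed over its length, for H3K27Ac and for input, with no input subtracted. The deposited score is the ROSE rank with an SE call. Alignment by the authors was to GRCh38 with Bowtie2 2.3.0. They handled reads with SAMtools 1.9, removed multi-mappers and duplicates, and called peaks with MACS2 2.2.6. The table of UW228 was made at another date than the other tables, which cannot be told apart from subgroup.

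Python 3.11.15 was used for all values and plots, with pandas 2.3.3, numpy 2.4.6, scipy 1.17.1 and matplotlib 3.10.9. H3K27Ac minus input was floored at 0. A block needed 3 or more enhancers whose relative input density reached 5, no more than 1000 kb apart, and the search was tested on simulated data. Of 29985 curated RefSeq genes, the 27445 listed in GENCODE 44 were used, with GENCODE coordinates. The genes named are the 3 genes of the locus, the other genes of the window and those nearest to *ZFAT* in pattern. Enhancers without input were left out of ratios. The window, genes and lists were chosen with earlier results of these data known. A list of genes for AT-hook proteins is not reported here. No test was made, since each line had 1 library of each kind.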

Additional observations from a re-analysis of the deposited data

How the results depend on the processing

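No paired analysis was possible because each line had 1 library of each kind and no result came from a test. Of the alternatives set at the start, 41 values moved by no more than 1.5 times, 21 moved further and 3 reversed. Of those chosen after seeing the data, 12, 5 and 2 did so. The number of block enhancers in HD-MB03 was 30 under each threshold tried.

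Counting presence only at an overlap of 0.5 of the length of both enhancers left 2 block enhancers present in MB002, 2 in D425 and 1 in UW228. By this rule 18.6%, 14.9% and 4.38% of all HD-MB03 enhancers were present. With 0.5 of the HD-MB03 enhancer, 11 were present in MB002, 5 in D425 and 1 in UW228, the share over the line being taken for UW228 alone, at 16.3%. Division by own relative input density, and likewise by the median input within 500 kb, gave 5 SEs of the window for MB002 and 0 each for D425 and HD-MB03. Over the whole lines the 2 divisions gave 951 and 847 SEs in MB002, 982 and 965 in D425, and 378 and 1045 in HD-MB03. As deposited these lines had 363, 431 and 302. Without input subtraction HD-MB03 had 12, among 202 SEs of the line. Ordering by H3K27Ac minus input per bp, with the deposited number of SEs of each line kept, gave 16 in HD-MB03, 1 in MB002 and 1 in UW228.

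The log2 ratio of the summed H3K27Ac minus input of HD-MB03 over MB002, D425 and UW228 was 1.81, 2.60 and 4.74. Division by the median density of input over the window reversed it to -3.66, -1.65 and -0.74, which follows from the choice of the window by the input of HD-MB03. Outside the span of the block it was -2.55, -1.89 and 0.28, and without the enhancer of the highest ratio 1.13, 1.94 and 4.09. Per bp of called length it was 1.82 over D425 and 1.997 over UW228, and division by the median of the line gave 5.74 over UW228.

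With gene body overlap alone, *ZFAT* ranked 4404 in MB002, where it was no longer SE-associated, and 4161 in D425, and *ZFAT-AS1* 557 in HD-MB03. In UW228, *ZFAT* ranked 8891 with a TSS window of 100 kb and also with the RefSeq extent. The unknown depth limits every value, and no error could be given.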
